A study of Mus musculus with 30 samples.

Results

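The regions described here are 3 windows of the mouse genome (build GRCm39) named after the transcription factor genes Nfia (chromosome 4, 97 to 98 Mb), Nfib (chromosome 4, 82 to 83 Mb) and Zbtb20 (chromosome 16, 42 to 44 Mb). They were selected on the density of transposon insertion sites, which was higher in livers treated with a piggyBac (PB) vector than in livers treated with a Sleeping Beauty (SB) vector. Every PB against SB comparison of density, of its place within a window or of reused positions is therefore a description and carries no p-value. The windows held 7199 of the 2181704 nuclear site records, 5031 of them from PB livers and 2168 from SB livers. The Nfia window held 1527 PB and 571 SB sites, the Nfib window 1078 and 438, and the Zbtb20 window 2426 and 1159.

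The study gave a therapeutic transposon in vivo to Fah knockout mice, which model the metabolic disease TT1 (tyrosinemia type I), and all 30 livers carry that knockout and a vector. PB livers are numbered 1 to 17 and SB livers 1 to 13, and each liver was taken as 1 replicate. The labels used here give no age, sex, dose, vector cargo or length of follow-up, no untreated liver, and do not say what sets livers 13 and above apart. Sites were found by streptavidin-based enrichment sequencing (SBE-seq), in which transposon ends and the adjoining genomic DNA are amplified and sequenced. A liver held between 4893 (SB liver 13) and 124238 (PB liver 7) nuclear sites. One site in SB liver 13 equals 2.04 sites per 10000, so the values of that liver move in coarse steps. A density is the number of distinct sites in a region per 10000 nuclear sites of the same liver, and it does not count cells.

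PB and SB are DNA transposons that a transposase cuts out of a plasmid and pastes into the genome. PB inserts at TTAA and SB at TA, and both sequences are common throughout the genome. In many cell types PB insertions are known to be more frequent near active genes and their regulatory regions, while SB insertions are known to be spread more evenly. Nfia and Nfib encode nuclear factor I proteins, which bind DNA as dimers and regulate genes in the developing brain, lung and other organs as well as in liver. Zbtb20 encodes a zinc finger repressor that is abundant in hepatocytes and is known for silencing alpha-fetoprotein after birth. In the order of genes of the RefSeq annotation of GRCm38.p6, the neighbouring protein-coding genes are Gm12695 and Tm2d1 for Nfia, Mpdz and Zdhhc21 for Nfib, and Gap43 and Tigit for Zbtb20. That annotation is of another build than the sites, so no site was assigned to an exon, an intron, a UTR or a promoter.

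To show what the PB target looks like in sequence of these genes, the 250 bases before the annotated start of Nfia and Zbtb20 are given from RefSeq (GRCm38.p6, plus strand, 5′ to 3′), with each TTAA in capitals. The table of promoters held 2 of the 3 genes.
Nfia: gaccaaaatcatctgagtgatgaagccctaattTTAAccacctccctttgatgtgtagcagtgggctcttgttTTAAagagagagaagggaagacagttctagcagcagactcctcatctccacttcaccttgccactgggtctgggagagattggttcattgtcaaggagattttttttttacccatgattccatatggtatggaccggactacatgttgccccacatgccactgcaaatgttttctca
Zbtb20: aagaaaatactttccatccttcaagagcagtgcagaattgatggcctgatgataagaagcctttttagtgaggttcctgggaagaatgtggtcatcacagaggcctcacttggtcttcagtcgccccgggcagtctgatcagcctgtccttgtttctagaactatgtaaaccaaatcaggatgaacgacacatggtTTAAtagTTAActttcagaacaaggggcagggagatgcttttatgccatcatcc
Both stretches hold 2 copies of TTAA, which reads the same on both strands. Of 32851 promoter stretches of 250 bases in the same table, 49.0% hold at least 1 TTAA, and the mean is 0.855 copies. No inserted site was placed on these sequences.

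All 3 windows were denser in PB than in SB livers, by 1.66 to 1.95 times. In the Nfia window the lowest, median and highest PB livers held 10.1, 12.1 and 15.1 sites per 10000, and the SB livers 4.01, 6.03 and 10.2. The means were 12.2 ± 1.48 (SD, n = 17) and 6.27 ± 1.77 (SD, n = 13), a ratio of 1.95. The groups met only through SB liver 13, the highest SB value, which rests on 5 sites. Among SB livers 1 to 12 the mean was 5.94 ± 1.38 (SD, n = 12) and the highest value 8.97, below every PB liver.

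The Nfib window was the least dense of the 3 in both groups. Its lowest, median and highest PB livers held 4.15, 8.72 and 10.3 sites per 10000, and its SB livers 3.12, 4.50 and 6.40. The means were 8.49 ± 1.44 (SD, n = 17) and 4.59 ± 0.817 (SD, n = 13), a ratio of 1.85. In this window 16 of 17 PB livers lay above the highest SB liver. The exception was PB liver 17, with 7 sites, so only 3 of 13 SB livers lay below the lowest PB liver.

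The Zbtb20 window separated the groups without overlap. The lowest, median and highest PB livers held 17.5, 19.5 and 23.1 sites per 10000, and the SB livers 6.13, 12.3 and 15.1. The means were 19.6 ± 1.70 (SD, n = 17) and 11.8 ± 2.15 (SD, n = 13), a ratio of 1.66. The lowest SB value came from SB liver 13, the highest SB liver in the Nfia window, and rests on 3 sites. SB livers 1 to 12 ran from 10.1 to 15.1. Over all 3 windows together, PB livers held 40.3 ± 2.72 and SB livers 22.7 ± 2.54 sites per 10000.

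**Figure D1:**
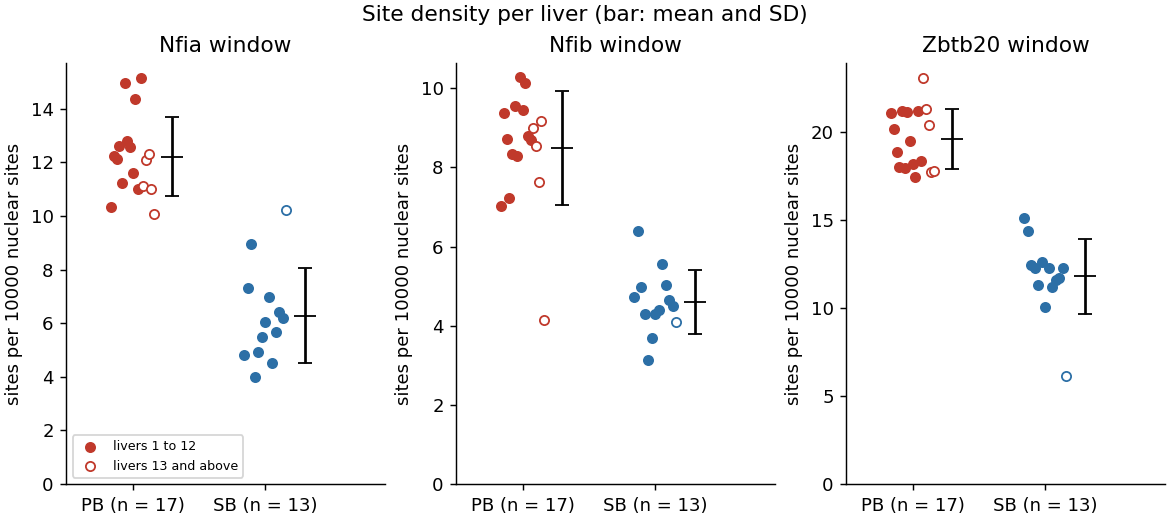
Site density of each liver in the 3 windows, in sites per 10000 nuclear sites of that liver, with the mean and SD of the 17 PB and 13 SB livers beside the points. Open points are livers numbered 13 and above. The groups are apart in the Zbtb20 window and overlap through SB liver 13 in the Nfia window and through PB liver 17 in the Nfib window.

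Set among 2578 windows of 1 Mb with a mean count of 1 or more, the Nfia window ranked 12th in mean PB density and 297th in SB. The Nfib window ranked 150th in PB and 896th in SB. The Zbtb20 window divides into unlike parts. Its first Mb held 5.84 ± 1.04 PB and 5.16 ± 1.20 SB sites per 10000, ranks 566 and 678. Its second Mb held 13.8 ± 1.32 and 6.65 ± 1.39, ranks 5 and 211. For scale, the median window held 3.34 PB and 3.65 SB sites per 10000.

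In limma's voom fit over these 2578 windows, the log2 difference of PB minus SB was 1.06 (SE 0.083) for Nfia and 0.92 (SE 0.087) for Nfib. It was 0.17 (SE 0.085) for the first and 1.00 (SE 0.075) for the second Mb of the Zbtb20 window. By this difference Nfia ranked 2nd, the second Mb of Zbtb20 5th, Nfib 9th and the first Mb of Zbtb20 597th. The median window lay at -0.16, and relative to it the differences were 1.22, 1.08, 0.33 and 1.17 in the order Nfia, Nfib, first and second Mb. As background, 19.3% of the windows (498) were called higher in PB and 38.9% (1003) higher in SB at an adjusted p under 0.05. With all differences centred on the median window the split was 807 to 598. Every PB liver lay above every SB liver in 20 windows, 0.776% of those tested, and the second Mb of Zbtb20 is one of them. All of these values come from the contrast on which the windows were selected, and nothing is read from their ranks.

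The Nfia and Nfib windows, and the second Mb of Zbtb20, were denser than the Mb on either side of the named windows in both groups. The Mb before the Nfia window held 5.08 PB and 4.69 SB sites per 10000 and the Mb after it 5.73 and 4.80. On the sides of the Nfib window the values were 4.49 PB and 4.01 SB before, and 5.41 and 4.28 after. Around Zbtb20 they were 1.48 PB and 1.96 SB before, and 3.84 and 3.62 after. The PB to SB ratio in these 6 flanking windows lay between 0.756 and 1.26.

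Within each window most of the net PB excess lay in a small part of the length. The net excess is the PB minus SB difference summed over all steps, so steps with higher SB density lower it. The shortest run of 10 kb steps that held at least 50% of the PB density of the Nfia window was chr4:97660001-97820000, 160 kb or 16% of the window. A PB liver had 53.0 ± 6.59% (SD, n = 17) of its Nfia window sites there, between 40.3% and 66.0%, while an SB liver with at least 10 sites in the window had 22.5 ± 8.48% (SD, n = 12). Density inside this stretch was 6.50 ± 1.35 in PB and 1.27 ± 0.674 in SB, a ratio of 5.12. Outside it the window held 5.70 ± 0.791 in PB and 5.00 ± 1.84 in SB, a ratio of 1.14. These densities are not per length of DNA, here and in the other windows, so inside and outside values of the same group are not compared. The stretch accounted for 88.2% of the window's net PB excess. Without SB liver 13 the ratios were 4.73 inside and 1.25 outside.

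In the Nfib window the corresponding stretch was chr4:82300001-82430000, 130 kb or 13% of the window. It held 54.6 ± 8.68% (SD, n = 16) of a PB liver's Nfib window sites and 25.9 ± 8.46% (SD, n = 12) of an SB liver's. Density was 4.71 ± 1.10 in PB and 1.09 ± 0.467 in SB inside the stretch, a ratio of 4.33, and 3.78 ± 0.916 and 3.51 ± 0.838 outside, a ratio of 1.08. It accounted for 92.9% of the net excess, the largest share of the 3 windows.

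The Zbtb20 stretch was the longest. It ran over chr16:42980001-43400000, 420 kb or 21% of the window, and held 50.0 ± 4.53% (SD, n = 17) of a PB liver's and 30.6 ± 3.84% (SD, n = 12) of an SB liver's sites. Density was 9.83 ± 1.31 in PB and 3.81 ± 0.776 in SB inside, a ratio of 2.58, and 9.80 ± 1.20 and 8.0 ± 1.95 outside, a ratio of 1.23. It accounted for 76.9% of the net excess. Without SB liver 13 the shares of the net excess were 81.8% for Nfia, 91.6% for Nfib and 82.2% for Zbtb20, so Nfia and Zbtb20 are not told apart by this share. Smaller PB peaks lay outside the Zbtb20 stretch. In the 100 kb from chr16:42700001-42800000 the means were 1.72 PB and 0.695 SB sites per 10000, and in chr16:43900001-44000000 they were 1.52 and 0.737.

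The stretches were placed where the PB mean was highest, so a lower SB share inside them follows in part from the choice. Placed by the same rule on the SB means, the shortest stretches were 370 kb in the Nfia, 300 kb in the Nfib and 640 kb in the Zbtb20 window, longer than the PB stretches in all 3. Each SB stretch contained the PB stretch of its window. SB sites were also concentrated in the PB stretches, though less than PB sites. The mean shares of an SB liver's sites there, 22.5%, 25.9% and 30.6%, were above the 16%, 13% and 21% of window length. PB density inside the SB stretches was 3.20, 2.70 and 2.06 times the SB density. The SB stretches held 118%, 101% and 80.6% of the net PB excess. Such shares of a net value are therefore not shares of all places where PB was higher.

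**Figure D2:**
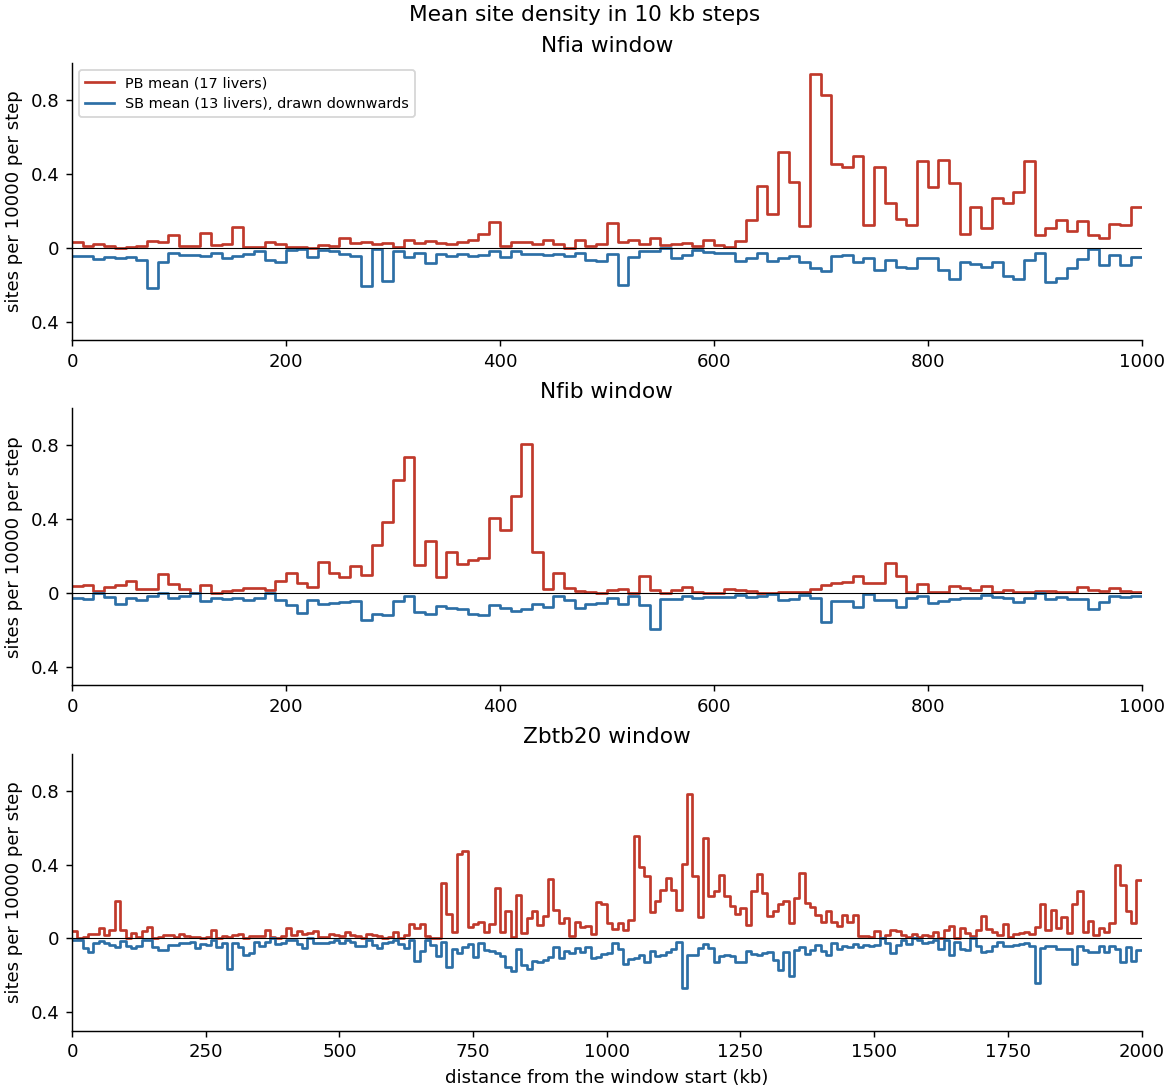
Mean density in 10 kb steps along each window, in sites per 10000 nuclear sites per step, with the PB mean of 17 livers drawn upwards and the SB mean of 13 livers drawn downwards against the distance from the window's start in kb. PB density reaches its highest step 690 kb into the Nfia window, 420 kb into the Nfib window and 1150 kb into the Zbtb20 window, while the highest SB mean of any step is 0.266.

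Within each window PB was above SB in some steps and below it in others. PB mean density was above SB in 48 of 100 steps of the Nfia window, 52 of 99 steps with a site in the Nfib window and 110 of 199 in the Zbtb20 window. Among all 244958 steps of 10 kb with a site in the tested windows, 37.9% had the higher mean in PB. At least 2 times the SB density was reached in 33, 24 and 70 steps of the 3 windows, against 21.4% of all steps. Summed over steps, the positive differences came to 7.89 sites per 10000 in the Nfia, 5.30 in the Nfib and 11.1 in the Zbtb20 window. The negative differences came to -1.95, -1.41 and -3.24. Inside the PB stretches the difference was 5.23, 3.62 and 6.02, so part of the positive differences lay outside them. Across the steps, PB and SB mean density were related with Pearson's r of 0.29, 0.34 and 0.35 and Spearman's rho of 0.44, 0.50 and 0.48 in the 3 windows. Steps of a window are neighbours and share their livers, so these values only describe the profiles.

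In the Nfia window the 3 steps with the largest PB minus SB difference all lay in the stretch described above. In chr4:97690001-97700000 the lowest, median and highest PB livers held 0.144, 0.911 and 1.78 sites per 10000. All 17 PB livers had a site there (112 sites in all), and 8 of 13 SB livers did (13 sites), with a median of 0.122 and a highest value of 0.333. The means were 0.940 ± 0.351 and 0.112 ± 0.110, a ratio of 8.38, and the groups overlapped through PB liver 1, which had 1 site. The next step, chr4:97700001-97710000, had means of 0.828 PB and 0.127 SB, and chr4:97660001-97670000 had 0.520 and 0.0561. The lowest difference was in chr4:97070001-97080000, near the other end of the window, with 0.0341 PB and 0.219 SB. That SB mean rests on 1 site in SB liver 13 and is 0.0667 without that liver.

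The Nfib window held the step with the highest PB to SB ratio among those named. In chr4:82310001-82320000 the PB livers held 0.356, 0.739 and 1.19 sites per 10000 as lowest, median and highest. All 17 PB livers had a site (90 in all), against 2 of 13 SB livers (2 sites), and the highest SB liver held 0.116. The groups did not overlap there, in a step picked for its large difference. The share of all 10 kb steps without overlap was not counted, so nothing is read from this. The means were 0.738 ± 0.200 and 0.0163 ± 0.0400, a ratio of 45.2 that rests on 2 SB sites. Further on, chr4:82420001-82430000 held 0.805 ± 0.289 in PB and 0.0875 ± 0.106 in SB (106 and 8 sites). The step chr4:82300001-82310000 held 0.614 and 0.0453. The lowest difference was in chr4:82540001-82550000, with 2 PB and 5 SB sites, and its SB mean of 0.193 is 0.0392 without SB liver 13.

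In the Zbtb20 window the leading step was chr16:43150001-43160000. The median PB liver held 0.601 sites per 10000 there and the highest 1.78, while the median SB liver had no site and the highest held 0.289. Sites were found in 16 of 17 PB livers (100 sites) and 6 of 13 SB livers (11 sites), with means of 0.781 ± 0.455 and 0.0892 ± 0.112. The step chr16:43180001-43190000 had a PB mean of 0.543 ± 0.690 on 47 sites, with the highest liver at 2.96, and an SB mean of 0.0330. In chr16:43050001-43060000 the means were 0.556 and 0.107, and 13 PB livers had a site. The lowest difference, in chr16:43800001-43810000, was 0.0607 PB against 0.240 SB (8 and 20 sites), and the SB mean was 0.260 without SB liver 13. A liver with no site in a step could hold up to 0.241 sites per 10000 in the deepest liver and 6.13 in SB liver 13, if a count of 0 is taken to allow 3 sites, so single steps are not readable in single shallow livers.

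**Figure D3:**
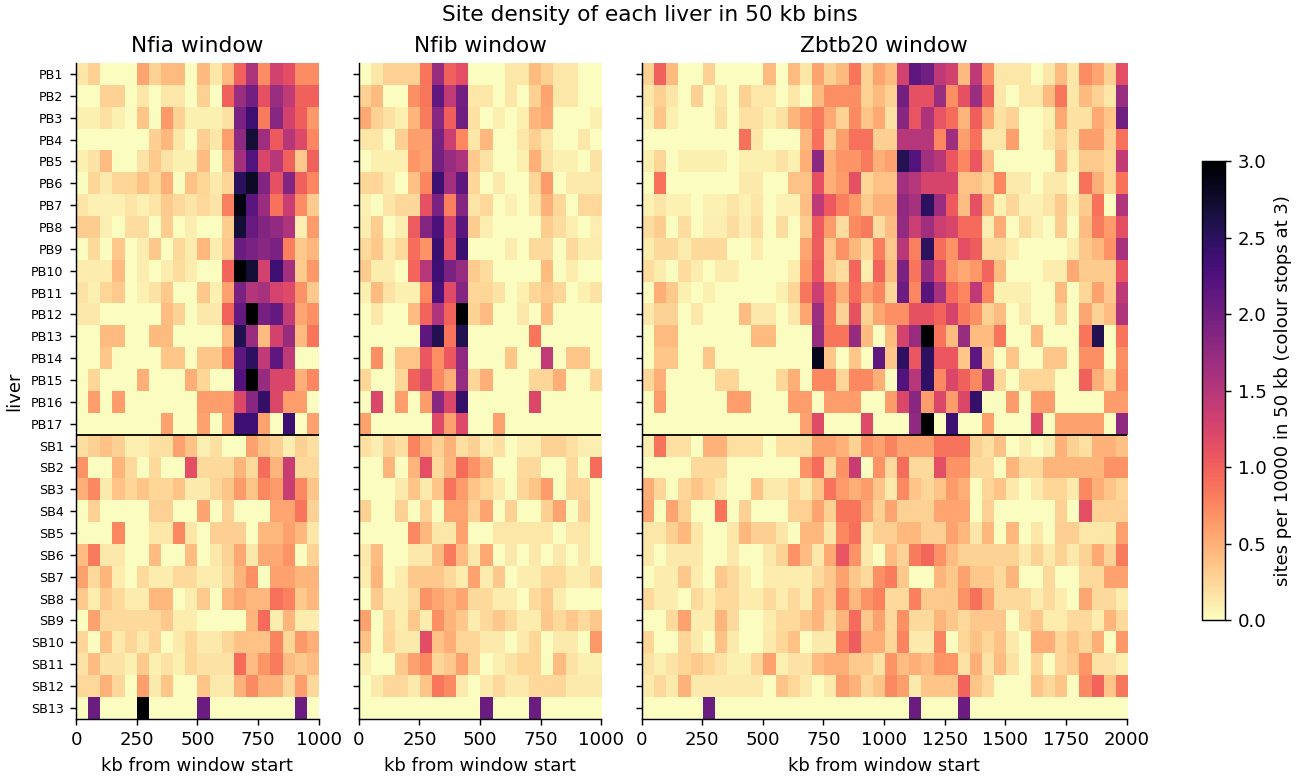
Density of every liver in bins of 50 kb along the 3 windows, in sites per 10000 nuclear sites per bin, with PB livers above the line and SB livers below it. Dark bins line up across PB livers at the same distances from the window's start, and the row of SB liver 13 holds isolated dark bins because 1 of its sites equals 2.04.

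The unevenness along each window was also measured without placing a stretch. The extra-Poisson CV (coefficient of variation) of pooled sites over 10 kb steps is the spread of the step counts beyond counting error, divided by their mean. It was 1.41 for PB and 0.465 for SB in the Nfia window, 1.70 and 0.556 in the Nfib window, and 1.25 and 0.515 in the Zbtb20 window. Computed within single livers, the PB means were 1.32 ± 0.217 (SD, n = 17), 1.59 ± 0.298 (SD, n = 16) and 1.30 ± 0.309 (SD, n = 17). The SB means within livers were 0.736 ± 0.574, 0.586 ± 0.371 and 0.640 ± 0.366 (SD, n = 12 each), above the pooled value in each window and with a wide spread. With positions found in more than 1 liver left out, the PB values were 0.837, 1.03 and 0.788, still above the SB values. By another measure, the densest 300 kb of the Nfia window held 77.9% of its PB and 47.8% of its SB sites, and for Nfib 78.8% and 52.7%. The first and second Mb of Zbtb20 gave 70.5% and 59.0% for PB and 53.0% and 43.7% for SB. Over all tested 1 Mb windows the medians were 49.3% for PB and 41.0% for SB. Among those windows the share of Nfia lay at percentile 97.8 in PB and 81.0 in SB, and that of Nfib at 98.1 and 91.7. The first Mb of Zbtb20 lay at 92.6 and 92.1, similar in both groups, and the second Mb at 74.1 and 64.5.

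PB livers 13 to 17 held fewer sites than livers 1 to 12, and the windows were compared between these sets of PB livers, a contrast the selection did not use. Mean density was 12.6 in livers 1 to 12 and 11.3 in livers 13 to 17 in the Nfia window, 8.82 and 7.69 in the Nfib window and 19.4 and 20.1 in the Zbtb20 window. In limma's voom fit the log2 difference of livers 13 to 17 minus 1 to 12 was -0.09 for Nfia (95% interval -0.36 to 0.17, adjusted p = 0.92) and -0.18 for Nfib (-0.51 to 0.15, adjusted p = 0.87). For Zbtb20 limma gave -0.07 for the first Mb (-0.44 to 0.31, adjusted p = 0.96) and 0.14 for the second (-0.09 to 0.37, adjusted p = 0.84). No window passed the test, and the intervals of Nfib and of the first Mb of Zbtb20 are the widest. Over the genome the fit called 0.0% of 2575 windows in either direction, with 105 higher and 59 lower at an unadjusted p under 0.05, while limma-trend called 15 and 20. With reused positions removed, the Nfib difference was 0.02, and without PB liver 17 the difference of the first Mb of Zbtb20 was 0.06.

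The strand recorded for a site was not used to select the windows and was compared with the rest of the genome of the same liver. To what the strand refers, the transposon's direction or the read's, is not stated in the sources used here. No window differed from the rest of its livers after adjustment over the 16 strand and column 4 tests (two-sided sign-flip permutation tests over livers). In the Nfia window PB livers had 41.9%, 52.6% and 64.0% of sites on the plus strand as lowest, median and highest, and 12 of 17 livers lay above their own genome. The mean was 52.7%, 3.68 ± 5.71 percentage points above the rest (permutation test, p = 0.017, adjusted p = 0.12). The Nfia window of SB livers leaned the other way, with 45.1% on the plus strand, -3.75 ± 7.53 points from the rest (n = 12, adjusted p = 0.30).

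In the Nfib window SB livers with at least 10 sites had 56.0% plus, 7.16 ± 9.73 points above the rest and higher in 10 of 12 livers (permutation test, p = 0.022, adjusted p = 0.12). With every SB liver kept, SB liver 13 included, the SB difference was 3.05 points for Nfib (adjusted p = 0.76) and -5.48 points for Nfia (adjusted p = 0.23). PB livers had 51.9% plus in the Nfib window, 2.83 ± 8.52 points above the rest (n = 16, adjusted p = 0.39). In the Zbtb20 window PB livers had 47.1% plus, -1.91 ± 4.21 points from the rest and lower in 10 of 17 livers (adjusted p = 0.26), and SB livers -1.03 ± 3.50 points (n = 12, adjusted p = 0.42). Over all 3 windows the differences were 0.850 points in PB (adjusted p = 0.42) and -1.47 points in SB (adjusted p = 0.45). The SB value is -0.240 without SB liver 13, which has 10 sites in the windows. Pooled over livers, 2484 of 5031 PB sites and 1039 of 2168 SB sites were on the plus strand, 49.4% (95% Wilson interval 48.0% to 50.8%) and 47.9% (45.8% to 50.0%). These intervals cover counting error only.

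Beside its strand each site carries a whole number in column 4 of the deposited tables, called here the column 4 number, whose meaning is not given in the sources used here. The median of a whole liver ran from 17 (PB liver 7) to 160 (PB liver 16), so window sites were compared with the other sites of the same liver on the log2 scale. Over all 3 windows the PB median lay 0.04 ± 0.05 (SD, n = 17) above the rest and was higher in 13 livers (permutation test, p = 0.0099, adjusted p = 0.12). With the mean in place of the median this difference was 0.07 and passed (adjusted p = 0.0051), the only one of the 16 comparisons to pass under any alternative tried. The single windows gave 0.02 for Nfia (adjusted p = 0.39), 0.0013 for Nfib (adjusted p = 0.98) and 0.04 for Zbtb20 (14 of 17 livers higher, adjusted p = 0.20). In SB livers the windows together lay 0.03 ± 0.09 above the rest (SD, n = 13, adjusted p = 0.39). A column 4 number under 10 was found for 6.33% of a PB liver's window sites and 7.69% of its other sites on average, and for 7.92% and 8.47% in SB.

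Sites in the top 1% of their liver's column 4 numbers were counted in each window, where an even spread would give a share near 1%. The top 1% of a liver's numbers held 1.70% of the Nfia, 1.58% of the Nfib and 0.618% of the Zbtb20 window's PB sites, and 1.75%, 0.913% and 0.777% of their SB sites. Pooled over livers, these shares rest on 26, 17 and 15 PB sites and 10, 4 and 9 SB sites. They were not tested, and no excess or lack is read from them. Sites were then ranked by column 4 number within their liver, and the rank was taken as a share of the liver's sites. In the Nfia window the highest PB site was chr4:97725021-97725024 on the minus strand in PB liver 5, with 213, rank 78 of 121266 (top 0.0643%). The Nfib window's was chr4:82422406-82422409 in PB liver 9, with 253, rank 105 of 87787 (top 0.120%). In the Zbtb20 window it was chr16:42793335-42793338 in PB liver 7, with 72, rank 80 of 124238 (top 0.0644%). The highest SB sites of the Nfia and Zbtb20 windows were chr4:97065863-97065864 (176, rank 66 of 86202) and chr16:42921855-42921856 (178, rank 58), both in SB liver 7. That of the Nfib window was chr4:82371895-82371896 in SB liver 10 (155, rank 210 of 77746).

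**Figure D4:**
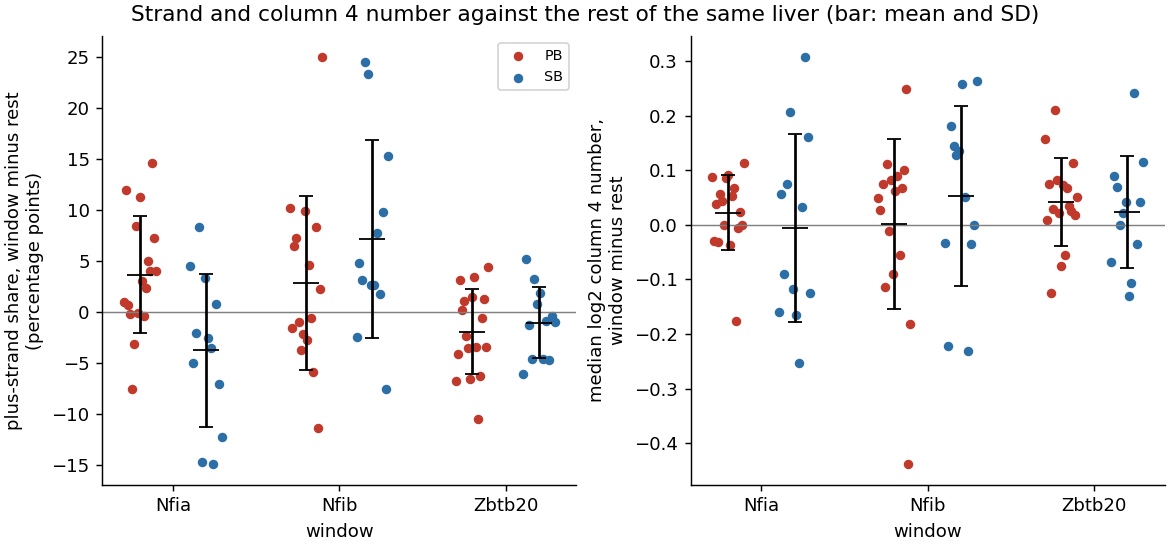
Window minus rest of the same liver for the share of sites on the plus strand, in percentage points, and for the median log2 column 4 number. Each point is a liver with at least 10 sites in the window and the bars are the mean and SD. The points of every window lie on both sides of 0 in both groups.

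Positions were reused between PB livers. A site counts as reused when its position and strand occur in another liver of the same group. In the Nfia window the lowest, median and highest PB livers had 27.8%, 38.9% and 50.0% of their sites at such positions, with a mean of 39.6 ± 5.38% (SD, n = 17). In the Nfib window the mean was 34.8 ± 6.06% and in the Zbtb20 window 36.0 ± 4.56%. The rest of the genome of the same PB livers had 29.3 ± 1.37%. In SB livers the windows together had 1.87 ± 1.32% (SD, n = 13) and the rest 2.14 ± 0.152%. Reuse rises with the density of sites in a region and with the number of livers and sites compared, and the windows were selected on density, so these shares are not tested.

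Counted as positions with strand ignored, the PB livers together used 984 positions in the Nfia, 727 in the Nfib and 1678 in the Zbtb20 window. Of these, 254 (25.8%), 169 (23.2%) and 364 (21.7%) were found in at least 2 livers, against 16.9% in the rest of the genome. SB livers used 565, 431 and 1133 positions, of which 5, 6 and 23 were in at least 2 livers. The stretches that held most of the net PB excess, placed by density, held more reused positions. In the Nfia stretch 35.3% of 450 positions were reused and outside it 17.8% of 534. The Nfib values were 34.6% of 327 inside and 56 of 400 outside, and those of Zbtb20 25.9% of 792 and 17.9% of 886. Within the windows 14 positions, all in PB, were found in 8 or more livers, and 10 of them lay in these stretches. They were 0.413% of the windows' PB positions, against 0.481% of PB positions in the rest of the genome, so such positions were not more frequent in the windows.

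The most reused position of the Nfia window was chr4:97725225-97725228, found in 11 of 17 PB livers with 4 plus and 8 minus records. Its column 4 numbers ran from 3 to 128 with a median of 31.5, and PB liver 10 held it on both strands. It was followed by chr4:97892659-97892662 in 10 livers (6 plus, 5 minus, median 42) and chr4:97893359-97893362 in 9 livers (4 plus, 6 minus, median 40.5). A further position was also in 9 livers. The last pair named lies outside the densest stretch. All 3 positions span 4 bp, the length of a TTAA.

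In the Nfib window chr4:82416106-82416109 was found in 12 PB livers with 5 plus and 10 minus records and column 4 numbers from 5 to 163 (median 63). The positions chr4:82422406-82422409 (5 plus, 6 minus, median 40) and chr4:82423160-82423163 (3 plus, 6 minus, median 85) were each in 9 livers. All 3 lie near the far end of the 130 kb stretch. The Nfib positions were thus recorded on both strands, as were those of the Nfia window.

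The Zbtb20 window held the position with most records, chr16:42793335-42793338, in 12 PB livers with 7 plus and 10 minus records and column 4 numbers from 9 to 196 (median 74). PB livers 2, 5, 7, 8 and 11 held it on both strands, and it is also the window's highest-ranked PB site described above. It lies in the first Mb, outside the densest stretch. Next came chr16:43295832-43295835 (6 plus, 7 minus, median 51) and chr16:43123874-43123877 (3 plus, 8 minus, median 40), each in 9 livers, as were 2 other positions of the window.

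Reuse in SB livers was limited to 2 or 3 livers a position. In the Nfia window 5 positions tied at 2 livers, the first by the naming rule being chr4:97826059-97826060 (both minus). In the Nfib window chr4:82288811-82288812 was in 3 livers, all plus. In the Zbtb20 window chr16:43838258-43838259 was in 3 livers (2 plus, 1 minus), as was 1 other position.

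**Figure D5:**
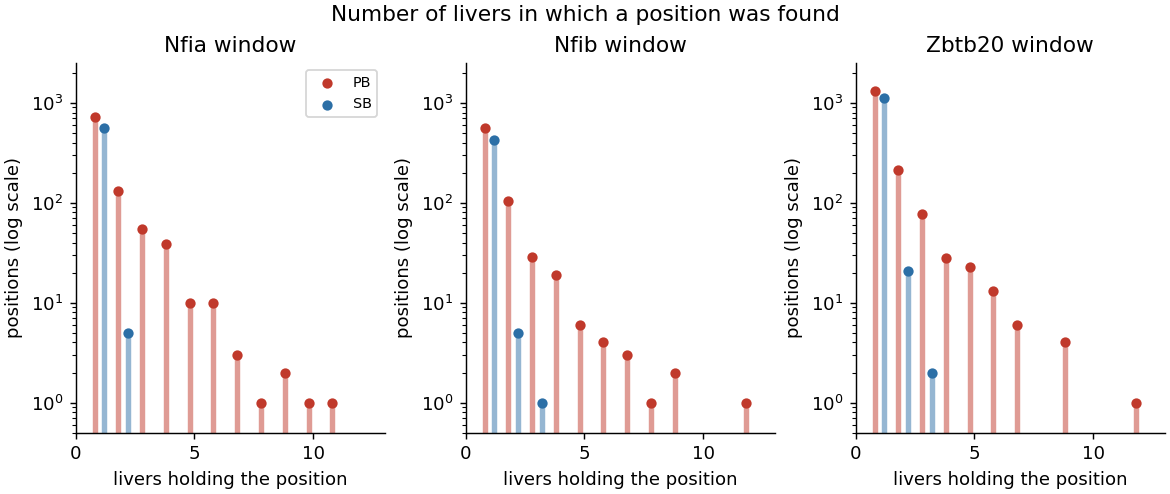
Number of positions (log scale) by the number of livers of the group in which they were found, strand ignored, for PB and SB in each window. PB positions reach 11 livers in the Nfia window and 12 in the other windows, and SB positions reach 3 at most.

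Some positions were recorded on both strands in 1 liver. To what the strand refers is not stated, so such records are not read as insertions in both directions. In the windows 131 of 4900 PB liver positions (2.67%) were recorded on both strands, against 2.50% in the rest of the genome. The counts were 34 for Nfia, 36 for Nfib and 61 for Zbtb20, and 2 of 2166 for all SB windows together. With reuse counted by position and strand ignored, 2417 PB sites of the windows were reused and 2614 single. Their column 4 numbers were similar, with medians of 48 and 46.5. Within livers the reused sites lay 0.02 ± 0.12 higher on the log2 scale (SD, n = 17, 10 higher). The coincidences between PB livers equalled those of 1898 equally used position and strand targets in the Nfia, 1327 in the Nfib and 3186 in the Zbtb20 window. The number is a summary of coincidences, not a count of TTAA sites.

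PB and SB rarely met at the same position. The TA inside a PB position coincided with an SB position 7 times in the windows, 0.207% of PB and 0.329% of SB positions, against 0.232% and 0.227% in the rest of the genome. Neighbouring PB positions lay a median of 361 bp apart in the Nfia, 413 bp in the Nfib and 449 bp in the Zbtb20 window, and SB positions 1006, 1319 and 1014 bp. The widest gaps without any PB position were 22766, 29186 and 29083 bp, longer than the widest SB gaps of 16959, 17427 and 22919 bp. These gaps are between positions pooled over livers, 984, 727 and 1678 in PB against 565, 431 and 1133 in SB. The shorter median PB gaps follow in part from the larger number of PB positions. Gaps were not compared at equal numbers of positions. The widest PB gaps were longer although PB had more positions.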

How the data were processed

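Insertion sites in genomic DNA of 17 PB and 13 SB livers were read from 1 deposited table per liver, each with 4 columns (chromosome, start, end, and strand with a whole number). The authors' processing used cutadapt and BWA with build GRCm39, per the submitters' processing notes, which give no versions. The column 4 number has no stated unit and its smallest value was 3, so sites with lower numbers are not seen here. Deposited merged tables of livers 1 to 12 were not used. Mitochondrial sites were left out, and starts were changed to 1-based positions.

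The members and lists were chosen with earlier results of these data known. The naming rule takes, per window, the 3 steps of 10 kb with the largest PB minus SB mean density and the 1 with the lowest, the 3 positions in most PB livers and the 1 in most SB livers. Windows of 1 Mb whose mean count over livers was 1 or more were fitted with limma 3.58.1 (voom, total nuclear sites as library size, R 4.3.3) and p-values adjusted by Benjamini-Hochberg over all windows. Strand and column 4 tests were two-sided sign-flip permutation tests over livers with at least 10 sites in the window, 100000 resamples or all sign patterns, with 16 tests adjusted together. Other values used scipy 1.17.1, pandas 2.3.3 and numpy 2.4.6 in Python 3.11.15. Depth ran from 4893 to 124238 sites per liver. Each liver was lysed whole, per the labels' protocols, and counted as 1 replicate.

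The fit was tested on simulated counts, 5 runs per comparison with 200 changed windows each. For PB minus SB (2577 windows) 88.4% of windows changed 1.5-fold and 98.4% changed 2-fold were recovered, with 4 to 13 false calls per run. For PB livers 13 to 17 minus 1 to 12 (2573 windows) the shares were 33.2% and 71.4%, with 7 to 13 false calls. Alternatives covered livers 1 to 12 alone, SB liver 13 left out, each of PB livers 13 to 17 left out, a column 4 minimum of 10, merging sites within 10 bp, leaving out reused positions, the window filter, scaling and test, the step size and the liver number as a block. Step and stretch values without SB liver 13 were added after seeing the data. A planned list of other liver regulator genes is not analysed here, since no GRCm39 annotation was used.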

Additional observations from a re-analysis of the deposited data

How the results depend on the processing

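Of 300 values recomputed under an alternative, 276 were counted as unchanged. For tested values this means the same direction and the same side of the threshold, whatever their size. For values without a test it means a size within a set margin, and for log2 differences also the same direction. The PB minus SB log2 difference stayed above 0 in all windows under every alternative run. Without positions found in more than 1 liver, which removes far more PB than SB sites, it was 0.68 for Nfia and 0.75 for the second Mb of Zbtb20. The same alternative called 185 windows higher in PB and 220 higher in SB, gave extra-Poisson CVs of 0.837, 1.03 and 0.788 in PB for Nfia, Nfib and Zbtb20, and turned the sign of 4 small differences that never passed: PB livers 13 to 17 minus 1 to 12 in the Nfib window (0.016), the Nfib plus-strand share in PB (-0.42 points) and the PB column 4 difference of Nfia (-0.030) and Nfib (-0.021). Centring on the median window called 807 windows higher in PB and 598 in SB. With livers 1 to 12 alone the PB plus-strand difference of all windows was -0.058 points. With every liver that had a site, the SB plus-strand differences were -5.48 points for Nfia, 3.05 for Nfib and 0.617 for Zbtb20, and the SB column 4 difference of Nfib -0.080. The mean in place of the median gave the PB column 4 difference of all windows as 0.073 (adjusted p = 0.0051, over the alternatives 0.0051 to 0.34). With strand ignored, reuse in PB was 51.9% for Nfia, 46.9% for Nfib, 46.1% for Zbtb20 and 48.1% together, and in SB 1.51% for Nfia and 3.79% for Zbtb20. Without each of PB livers 13 to 17 in turn, the difference of livers 13 to 17 minus 1 to 12 ran from -0.13 to -0.06 for Nfia, -0.23 to -0.05 for Nfib, -0.149 to 0.058 for the first and 0.12 to 0.17 for the second Mb of Zbtb20; the positive value of the first Mb is the one without PB liver 17. The cause of these shifts was not tested beyond what each alternative removes. Without a minimum mean count, 51 windows were called higher and 3 lower in PB livers 13 to 17, and limma-trend called 15 and 20, against 0 by voom (105 and 59 at an unadjusted p under 0.05).

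The numbers that PB and SB livers share were used as a replicate block in 1 fit. Over 13 pairs, same-numbered livers correlated at 0.04 to 0.19 in their deviations, 10 of them above 0.1, and 2 were the best match of their number, so no pairing was assumed. The block gave 480 windows higher in PB and 1050 higher in SB, and differences of 1.05, 0.93, 0.18 and 0.98 for Nfia, Nfib and the first and second Mb of Zbtb20. Shallow livers limit single steps most, since SB liver 13 has 10 sites in all 3 windows.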
